A study of Mus musculus with 42 samples.

Results

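Ribosome-bound RNA of the mouse proximal tubule was compared between kidneys at day 5 of unilateral ureteral obstruction (UUO) and contralateral kidneys. The comparison held 14 of the 42 libraries of the series, chosen by their labels alone. They were every library of the proximal tubule fraction (PT) from day 5 kidneys (D5UUO, 4 male and 3 female) and every PT library from contralateral kidneys (CLK, 4 male and 3 female). The male and the female difference were averaged at equal weight. All mice were 12 weeks old, and the RNA of both states came from renal cortex by the same capture on beads coated with antibodies to GFP. The other groups of the series were PT at day 10 (D10UUO) and a fraction labelled Total in all 3 states, and PT at day 10 and Total at day 5 serve below as comparisons. By its name a contralateral kidney is the other kidney of an operated mouse and not that of an unoperated one, and the labels give it no day. The labels name neither the strain, nor the tagged allele, nor the promoter that drives it, so which cells carried the tag is known only from the label of the fraction. They also do not say that the libraries of a group came from separate animals, so the p-values measure the spread between these libraries, which may be technical.

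The proximal tubule takes back most of the filtered glucose, phosphate, amino acids and protein, and it draws its energy mainly from burning fatty acids in densely packed mitochondria. After injury its cells are known to lose transporters of the brush border, to turn on genes of the developing kidney and to release cytokines and matrix factors, while a blocked ureter raises the pressure in the tubule and stretches its wall. The capture, translating ribosome affinity purification (TRAP), pulls down tagged ribosomes with the messages they hold, so a level combines the amount of a message with its loading on ribosomes. In such a bulk fraction, fewer cells of a type and less RNA per cell cannot be told apart.

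Levels are given in CPM, counts scaled to a common total after TMM scaling of the library sizes, as the median of the 7 libraries of a state with the lowest and highest in brackets. Levels in PT used the TMM factors of the PT libraries and levels in Total those of all 42 libraries, so they compare only roughly. Sums of markers in Total hold only the members that passed the filter. Changes are log2 fold changes of day 5 over contralateral with a standard error derived from the test. A gene is said to have risen or fallen when its change reached 2-fold with a p below 0.05 in the quasi-likelihood test of edgeR, adjusted over all tested genes by the method of Benjamini and Hochberg. The 14 libraries held 12.5 to 28.1 M counts. The 16 proximal tubule markers summed to between 39700 and 57200 CPM in the contralateral libraries, against a median of 31400 CPM in contralateral Total, and to between 7860 and 13000 CPM at day 5. Gpx3, the plasma glutathione peroxidase that the proximal tubule secretes, was the most abundant gene of the contralateral libraries with 12.2% of all counts (9.74% to 14.1%). Genes encoded by the mitochondrial genome held 0.0231% ± 0.00882 (SD, n = 7) of the contralateral counts and 0.0126% ± 0.0029 (SD, n = 7) of the day 5 counts (exact permutation test within sex, two-sided, p = 0.00286, smallest possible 0.00143). Contralateral female 1 stood highest, at 0.0426%, and without it the difference of day 5 minus contralateral, averaged over the sexes, went from -0.0113 to -0.00733 percentage points (p = 0.00286 by the same exact test). The level of Lars2, a transfer RNA synthetase of mitochondria, separated libraries within both states. On unscaled library sizes it ran from 2560 to 12200 CPM in contralateral and from 2980 to 23600 CPM in day 5 libraries.

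Between the states, 4572 genes out of 14932 tested changed (30.6%): 2724 rose (18.2%) and 1848 fell (12.4%). Rises reached further than falls. Of the genes that rose, 204 changed by more than 5 log2 units, against 29 of those that fell, whereas between 1 and 2 log2 units the counts were 1249 and 1342. The values of 3285 of the 4572 changed genes did not overlap between the states within either sex, as was the case for 4662 of all tested genes. Of 12792 tested protein-coding genes 2445 rose and 1438 fell, against 2724 and 1848 of all 14932 tested genes. Of 835 tested processed pseudogenes, whose reads can come from their parent genes, 54 rose and 183 fell. The split between rises and falls depended on the scaling. With library sizes left unscaled, the median change of all genes moved from 0.05 to 0.52, and 83.2% in place of 59.6% of the changed genes were rises. TMM factors ran from 0.692 to 0.906 in contralateral and from 0.944 to 1.22 in day 5 libraries. Changes below are therefore relative to the median gene, and a described call that was lost without the scaling is named as such.

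**Figure D1:**
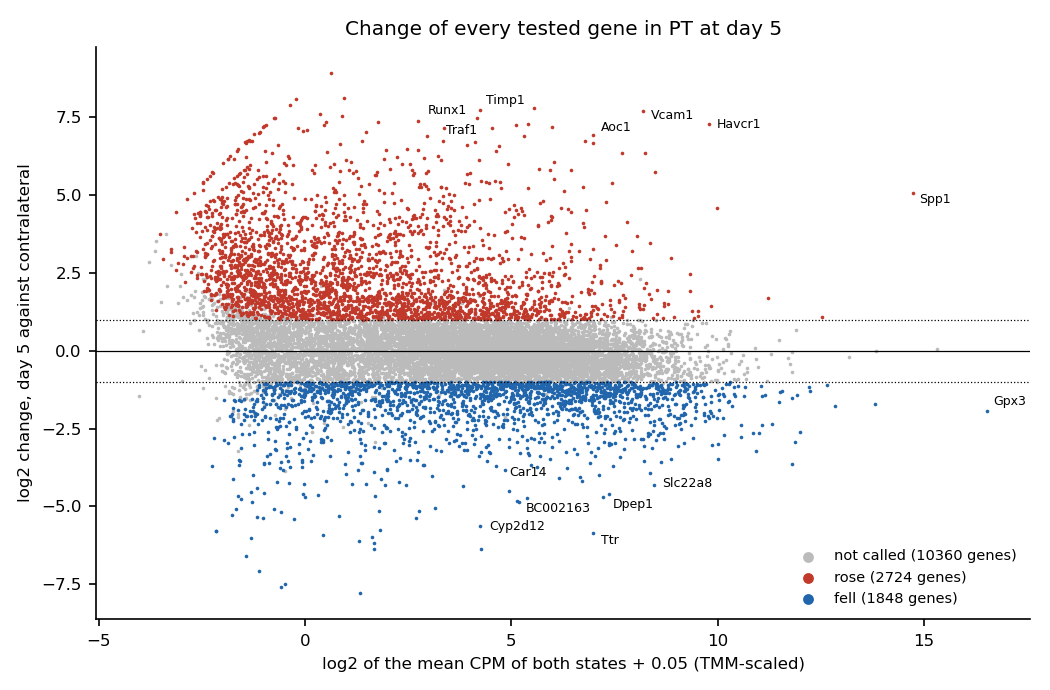
Each point is 1 of 14932 tested genes, with the log2 of its mean CPM over the contralateral and day 5 PT libraries on the x axis and its log2 change at day 5 on the y axis. The 2724 genes that rose (red) reach further from 0 than the 1848 that fell (blue), and dotted lines mark the 2-fold limits.

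The largest rises were taken among genes of at least 20 CPM without overlap between the states within a sex. Separation within a sex was thus a condition of the choice and not a result. These rises joined injury markers, transcription factors, cytokine genes and a matrix protease inhibitor. Serpina10, an inhibitor of coagulation proteases, had a median of 0.381 CPM (0.171 to 0.801) in contralateral libraries and of 71 CPM (49.5 to 153) at day 5 (log2 change 7.80 ± 0.28, adjusted p = 1.8e-14). Timp1, an inhibitor of matrix metalloproteinases, had a median of 0.154 CPM (0.0668 to 0.305) in contralateral libraries and of 32 CPM (13.3 to 74.5) at day 5 (log2 change 7.72 ± 0.29, adjusted p = 2.66e-14). Vcam1, the adhesion molecule that binds leukocytes, had a median of 2.71 CPM (1.63 to 4.42) in contralateral libraries and of 589 CPM (475 to 719) at day 5 (log2 change 7.69 ± 0.24, adjusted p = 5.88e-15). For each of these genes every day 5 library lay above every contralateral one. Cd44, the hyaluronan receptor, moved from 0.626 CPM (0.181 to 0.868) to 82.3 CPM (63.3 to 112) (log2 change 7.28 ± 0.36, adjusted p = 1.87e-12). Il1rn, the antagonist of the interleukin 1 receptor, moved from 0.734 CPM (0.455 to 1.98) to 111 CPM (78.5 to 206) (log2 change 7.17 ± 0.43, adjusted p = 5.87e-11). Traf1, an adaptor of TNF receptors, moved from 0.267 CPM (0.114 to 0.823) to 45.4 CPM (36.7 to 55.6) (log2 change 7.14 ± 0.30, adjusted p = 1.76e-13). Again the states did not overlap. Aoc1, the enzyme that breaks down histamine and putrescine, moved from 2.31 CPM (1.14 to 2.94) to 261 CPM (173 to 308) (log2 change 6.92 ± 0.23, adjusted p = 9.02e-15). The neutrophil chemokine Cxcl1 moved from 0.542 CPM (0.325 to 1.37) to 76.7 CPM (26.2 to 139.8) (log2 change 6.90 ± 0.48, adjusted p = 6.31e-10), and the near-identical copies of this chemokine family leave its counts uncertain. For both genes too, the lowest day 5 library stood above the highest contralateral one.

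The genes above were chosen for the size of their rise, so that they moved together is no result. Their promoters were searched because NF-kB and AP-1 are known to act on several of them. RefSeq sequence (GRCm38.p6, 250 bases upstream of the start) was matched by symbol for 9 of the 12 largest rises, with 15 promoters, and for 8 of the 12 largest falls, with 10 promoters. Motifs were searched on both strands, among them GGANNTTCC (NF-kB), TGANTCA (AP-1), CAAAGTCCA (HNF4) and TGATGCAA (ATF4 and C/EBP). Of the 15 promoters of the rises, 2 held an AP-1 match (Il1rn and Aoc1) and 1 an NF-kB match (Cxcl1). The promoters of the other matched genes among the rises held no match. The promoters with a match lie at chr2:24336610-24336859, chr6:48904736-48904985 and chr5:90890995-90891244, all on the plus strand, and capitals mark the match.
Il1rn: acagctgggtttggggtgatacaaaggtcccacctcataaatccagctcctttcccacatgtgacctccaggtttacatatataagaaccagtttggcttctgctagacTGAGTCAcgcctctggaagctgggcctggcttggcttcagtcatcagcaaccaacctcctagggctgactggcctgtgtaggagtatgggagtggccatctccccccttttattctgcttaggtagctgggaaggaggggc
Aoc1: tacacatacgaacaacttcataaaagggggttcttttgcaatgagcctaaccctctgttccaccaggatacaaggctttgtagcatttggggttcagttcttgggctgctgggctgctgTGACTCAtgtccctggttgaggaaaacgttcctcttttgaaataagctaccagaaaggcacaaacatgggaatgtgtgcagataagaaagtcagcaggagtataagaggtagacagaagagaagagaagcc
Cxcl1: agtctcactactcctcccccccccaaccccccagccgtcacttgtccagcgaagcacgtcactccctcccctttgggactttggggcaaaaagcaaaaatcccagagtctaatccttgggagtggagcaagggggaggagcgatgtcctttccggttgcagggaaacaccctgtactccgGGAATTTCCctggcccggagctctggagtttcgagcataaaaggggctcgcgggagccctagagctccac

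An NF-kB match stood in 3.59% of all 32851 promoters of the table, in 3.81% of those of tested genes, in 4.41% of the promoters of genes that rose and in 2.99% of those of genes that fell. The AP-1 letters stood in 6.75%, 4.71%, 7.38% and 5.16% of them, in the same order. Among the 12 largest falls, 1 promoter held a match to any of the searched motifs, that of Pik3c2g, a phosphoinositide kinase of class II. It lies at chr6:139613822-139614071 on the plus strand. Its match to the ATF4 and C/EBP letters, which stood in 0.791% of all promoters, is again in capitals. A match is a description of the letters only.
Pik3c2g: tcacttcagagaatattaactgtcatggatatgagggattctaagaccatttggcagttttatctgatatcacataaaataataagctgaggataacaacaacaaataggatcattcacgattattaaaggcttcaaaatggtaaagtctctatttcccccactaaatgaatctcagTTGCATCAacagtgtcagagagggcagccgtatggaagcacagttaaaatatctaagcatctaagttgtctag

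The 12 largest falls were chosen by the same rule, at least 20 CPM and no overlap between the states within a sex. They included transporters, enzymes, the carrier Ttr, a pair of pseudogenes and a long noncoding RNA. Ttr, transthyretin, a carrier of thyroid hormone and retinol-binding protein, had a median of 199.8 CPM (108 to 466) in contralateral libraries and of 3.98 CPM (1.65 to 8.44) at day 5 (log2 change -5.86 ± 0.60, adjusted p = 2.43e-07). Slc22a8, the organic anion transporter 3 of the basolateral membrane, had a median of 602 CPM (333 to 996) in contralateral libraries and of 22.7 CPM (17.3 to 51.5) at day 5 (log2 change -4.30 ± 0.47, adjusted p = 3.96e-07). Dpep1, a dipeptidase of the brush border, had a median of 292 CPM (185 to 384) in contralateral libraries and of 11.8 CPM (4.57 to 14.1) at day 5 (log2 change -4.71 ± 0.49, adjusted p = 2.08e-07). For all of these the highest day 5 library lay below the lowest contralateral one, as it did for Pik3c2g, which went from 94.6 CPM (36.8 to 114) to 2.68 CPM (1.89 to 4.03) (log2 change -4.74 ± 0.44, adjusted p = 3.24e-08). Car14, a membrane-bound carbonic anhydrase, went from 121 CPM (88.3 to 204) to 8.12 CPM (5.5 to 9.42) (log2 change -4.07 ± 0.33, adjusted p = 3.51e-09). Its exons overlap those of Aph1a on the other strand, and the strand setting of the counting is not given, so reads of such pairs cannot be told apart. Exon overlaps also hold for other genes described below. Among them are Tmem176b with Tmem176a and Hspd1 with Hspe1 on the other strand, and Atp6v0a4 with D630045J12Rik on the same strand. Mean contralateral levels of these partners were 1079, 300 and 119 CPM. Among less well described genes, Sectm1b went from 216 CPM (104 to 259.7) to 13.8 CPM (5.72 to 19.1) (log2 change -4.05 ± 0.32, adjusted p = 1.81e-09). The states did not overlap for Car14 or Sectm1b. The cytochrome P450 gene Cyp2d12 (-5.63 ± 0.64) and the carboxylesterase gene Ces1e (-4.52 ± 0.36) also fell, both members of families of close copies whose counts are uncertain.

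In amount of RNA, the exchange of abundant messages was dominated by a few genes. Spp1, osteopontin, a secreted phosphoprotein of matrix and urine, rose from rank 42 to rank 1 and had a median of 881 CPM (418 to 5143) in contralateral libraries and of 49560 CPM (30820 to 83170) at day 5 (log2 change 5.08 ± 0.28, adjusted p = 9.74e-12). Contralateral females lay between 3141 and 5143 CPM and contralateral males between 418 and 881 CPM, and every day 5 library lay above both. Gpx3 went from 153500 CPM (107600 to 179900) to 35270 CPM (25410 to 57880) (log2 change -1.94 ± 0.26, adjusted p = 2.77e-06), without overlap. Cd74, the invariant chain of class II antigen presentation, rose from rank 2282 to rank 20 and moved from 68.5 CPM (49.8 to 188) to 1780 CPM (1138 to 2930) (log2 change 4.57 ± 0.37, adjusted p = 2.62e-09). Tmem176b, a membrane protein of antigen-presenting cells and epithelia, moved from 1210 CPM (694 to 2083) to 3767 CPM (2912 to 3977) (log2 change 1.69 ± 0.17, adjusted p = 5.55e-08). Cstb, an inhibitor of cysteine proteases, moved from 199.7 CPM (142 to 259) to 1104 CPM (854 to 1414) (log2 change 2.45 ± 0.18, adjusted p = 6.37e-10). None of these 3 overlapped between the states. Among the annexins, calcium-dependent membrane binders, Anxa2 rose from rank 7196 to rank 106 (13.5 to 714 CPM in the medians) and Anxa5 from rank 1807 to rank 85 (95.6 to 771 CPM). Akr1a1, an aldo-keto reductase, fell by 1.79 on the log2 scale. Fth1, the ferritin heavy chain, fell by 1.10, and this call was lost without the scaling of library sizes (-0.65), as were those of Hrsp12, Fxyd2 and Keg1.

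**Figure D2:**
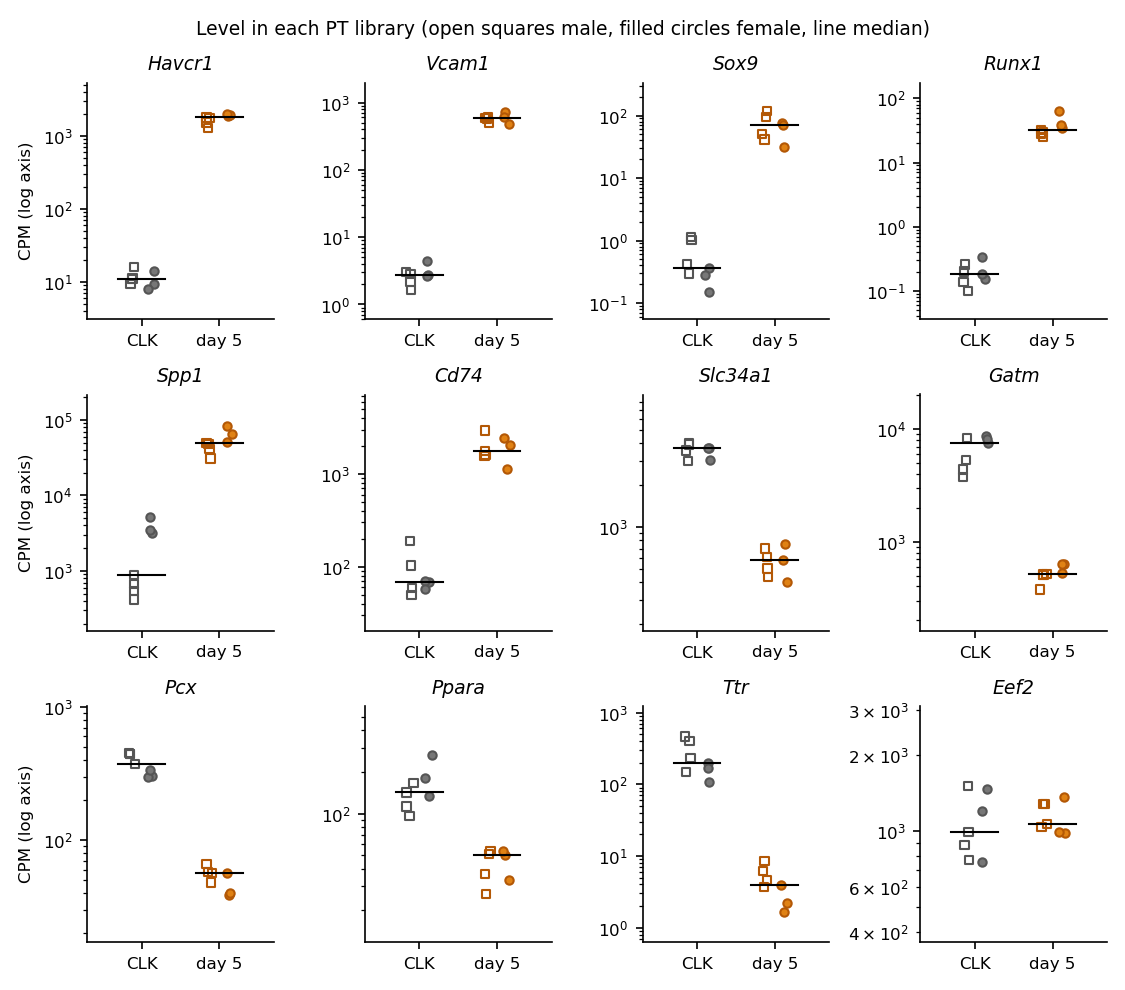
Level of 12 genes in each of the 7 contralateral (CLK) and 7 day 5 PT libraries, in CPM on a log axis, with open squares for males, filled circles for females and a line at the median. Havcr1, Vcam1, Sox9, Runx1, Spp1 and Cd74 stand higher in every day 5 library, Slc34a1, Gatm, Pcx, Ppara and Ttr lower in every day 5 library, and the 2 states overlap for Eef2.

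Genes that define the proximal tubule fell. Of 16 proximal tubule markers 15 fell, with a median of -2.50 against 0.05 over all genes. Gatm, which makes the creatine precursor guanidinoacetate, had a median of 7614 CPM (3756 to 8716) in contralateral libraries and of 518 CPM (377 to 638) at day 5 (log2 change -3.64 ± 0.32, adjusted p = 9.27e-09). Pck1, the gatekeeper of gluconeogenesis, had a median of 2685 CPM (1797 to 6999) in contralateral libraries and of 372 CPM (177 to 734) at day 5 (log2 change -3.22 ± 0.31, adjusted p = 3.1e-08). Ass1, the arginine-making enzyme of the tubule, had a median of 1869 CPM (1235 to 2596) in contralateral libraries and of 310.1 CPM (265 to 334) at day 5 (log2 change -2.69 ± 0.23, adjusted p = 6.51e-09). In each of them all day 5 libraries lay below all contralateral ones. Kap, the androgen-driven kidney protein, did not pass the test (-0.68 ± 0.22). Its contralateral libraries lay between 5847 and 13780 CPM in males and between 107 and 198 CPM in females, with changes of -1.71 and 0.35. Of 15 genes of the early segments S1 and S2, all fell, with a median of -2.37. Of 16 genes of the late segment S3, 9 fell and none rose, with a median of -1.09. Slc34a3, a phosphate carrier of the early tubule, went from 104 CPM (50 to 123) to 5.94 CPM (4.97 to 10.7) (log2 change -3.75 ± 0.38, adjusted p = 1.12e-07). The S3 gene Slc7a13, an aspartate and glutamate carrier, went from 249.8 CPM (2.16 to 411) to 29 CPM (0.66 to 95.5) (log2 change -2.16 ± 0.32, adjusted p = 8.62e-06). Its states overlapped across the sexes but not within either sex. Males went from between 249.8 and 411 CPM to between 29 and 95.5 CPM. Females went from between 2.16 and 3.05 CPM to between 0.66 and 0.977 CPM. Of 16 genes of endocytosis 8 fell, among them Lrpap1, the chaperone of megalin (810.0 to 203 CPM in the medians, -2.11 ± 0.20), and Atp6v0a4, a proton pump subunit (158 to 39.4 CPM, -1.96 ± 0.21). Their states did not overlap.

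Transcription factors moved in both directions. Of 20 factors tied to tubule identity and metabolism, 9 fell and none rose, with a median of -0.68. Ppara, the nuclear receptor that drives fatty acid oxidation, had a median of 142 CPM (95.6 to 267) in contralateral libraries and of 50.6 CPM (26.3 to 53.8) at day 5 (log2 change -1.85 ± 0.24, adjusted p = 1.9e-06), without overlap. Esrra, a regulator of mitochondrial genes, fell by 1.37, and this call was lost without the scaling (-0.92). Of 26 tested factors of injury and development, 16 rose and 2 fell, with a median of 2.32. Runx1, a factor of blood and hair follicle stem cells that also acts in injured epithelia, moved from 0.181 CPM (0.0995 to 0.341) to 31.8 CPM (25.1 to 62.8) (log2 change 7.46 ± 0.26, adjusted p = 1.8e-14). Sox9, a factor of kidney development and tubule repair, moved from 0.361 CPM (0.152 to 1.14) to 70.6 CPM (31.4 to 119) (log2 change 7.24 ± 0.54, adjusted p = 2.36e-09). Sox11, a factor of nephron formation, moved from 0.134 CPM (0 to 0.241) to 17.5 CPM (10.8 to 38.9) (log2 change 7.15 ± 0.82, adjusted p = 9.5e-07). The lowest day 5 library of each of these lay above the highest contralateral one. Etv5, an ETS factor downstream of GDNF and FGF, was 1 of the 2 that fell, from 16.3 CPM (13.7 to 32.4) to 4.07 CPM (2.02 to 5.01) (log2 change -2.43 ± 0.27, adjusted p = 1.63e-07). The other was Lhx1, which fell by 1.03 and was not called without the scaling (-0.56).

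Genes of mitochondrial and peroxisomal metabolism fell. Of 25 citrate cycle genes 19 fell and none rose, with a median of -1.20. Pcx, pyruvate carboxylase, which feeds the cycle and gluconeogenesis, had a median of 372 CPM (296 to 449) in contralateral libraries and of 56.7 CPM (38.7 to 66.2) at day 5 (log2 change -2.84 ± 0.25, adjusted p = 9.11e-09). Suclg1, a subunit of succinyl-CoA ligase, had a median of 1360 CPM (1020 to 1866) in contralateral libraries and of 376 CPM (202 to 542) at day 5 (log2 change -1.98 ± 0.26, adjusted p = 2.12e-06). Neither gene overlapped between the states. Of 38 peroxisome genes 16 fell and none rose, with a median of -0.85. Ehhadh, the bifunctional enzyme of peroxisomal fatty acid oxidation, went from 385 CPM (292 to 621) to 97.6 CPM (61.3 to 157) (log2 change -2.21 ± 0.29, adjusted p = 1.9e-06), without overlap. Glycolysis was divided, with 9 rises and 6 falls among 29 genes and a median of -0.13, which turned to 0.35 without the scaling. Hk2, the inducible hexokinase, moved from 0 CPM (0 to 0.228) to 5.28 CPM (2.02 to 11.8) (log2 change 7.02 ± 0.57, adjusted p = 2.64e-09), where the contralateral side rests on a few counts in 2 libraries. Pdk4, the kinase that shuts pyruvate dehydrogenase, moved from 1.52 CPM (1.08 to 3.0) to 33.9 CPM (13 to 44.1) (log2 change 3.97 ± 0.57, adjusted p = 1.32e-05), whereas its relative Pdk2 went from 480.1 CPM (393 to 732) to 119.9 CPM (84.3 to 166) (log2 change -2.08 ± 0.17, adjusted p = 3e-09). Pkm, the pyruvate kinase of growing cells, moved from 12.5 CPM (8.5 to 16.1) to 47 CPM (27.1 to 63) (log2 change 1.97 ± 0.22, adjusted p = 2.9e-07). For these 4 genes the states did not overlap.

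Amino acid breakdown showed the largest share of falls among the metabolic lists: 41 of 48 tested genes fell and 1 rose, with a median of -1.69. Gldc, the decarboxylase of the glycine cleavage system, had a median of 186 CPM (113 to 371) in contralateral libraries and of 11 CPM (9.3 to 12.2) at day 5 (log2 change -4.18 ± 0.29, adjusted p = 3.7e-10). Bhmt, which remethylates homocysteine with betaine, had a median of 3.21 CPM (1.39 to 34.6) in contralateral libraries and of 0.189 CPM (0 to 0.30) at day 5 (log2 change -5.37 ± 0.65, adjusted p = 1.09e-06). Neither overlapped between the states. Of 17 genes of NAD synthesis, which starts from tryptophan in this tubule, 8 fell and 2 rose. Haao, the enzyme that yields quinolinate, went from 413 CPM (181 to 638) to 37 CPM (20.6 to 86.5) (log2 change -3.16 ± 0.36, adjusted p = 5.52e-07). Afmid, the formamidase of the same route, went from 140.3 CPM (76.5 to 251) to 12 CPM (10.4 to 26.8) (log2 change -3.24 ± 0.34, adjusted p = 1.52e-07). Their states did not overlap. Of 34 glutathione and antioxidant genes, 10 fell and 2 rose. Ggt1, the brush border enzyme that breaks down glutathione outside the cell, went from 904 CPM (437 to 1357) to 177 CPM (108 to 253) (log2 change -2.17 ± 0.19, adjusted p = 8.44e-09). Mgst1, a membrane-bound glutathione transferase, rose on average (log2 change 1.15 ± 0.26, adjusted p = 0.00102), with male and female changes of 2.00 and 0.30 and overlapping states.

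Lipid and iron genes moved both ways. Of 28 genes of lipid storage and uptake 10 fell and 6 rose, with a median of -0.43, and the order turned to 5 and 8 without the scaling. Lpl, lipoprotein lipase, went from 334 CPM (208 to 713) to 32.2 CPM (13.9 to 62.9) (log2 change -3.41 ± 0.43, adjusted p = 2.36e-06), and Dgat2, which makes triglycerides, went from 158 CPM (115 to 185) to 41.6 CPM (19.6 to 52.2) (log2 change -2.06 ± 0.20, adjusted p = 4.01e-08). Hilpda, an inhibitor of fat breakdown on lipid droplets, moved from 3.01 CPM (2.04 to 5.4) to 8.91 CPM (6.82 to 15) (log2 change 1.60 ± 0.25, adjusted p = 2.1e-05). In these 3 genes the states stood apart. Of 25 genes of cholesterol synthesis and uptake 9 fell and 1 rose, the latter Sqle, squalene epoxidase (27.5 to 73.5 CPM in the medians, 1.22 ± 0.15). Of 20 iron genes 6 rose and 4 fell. Cp, ceruloplasmin, the copper enzyme that oxidises iron for export, had a median of 4.0 CPM (2.83 to 9.84) in contralateral libraries and of 424 CPM (327 to 473) at day 5 (log2 change 6.36 ± 0.29, adjusted p = 5.13e-13). Tfrc, the transferrin receptor, had a median of 17.9 CPM (13.6 to 23.6) in contralateral libraries and of 5.09 CPM (3.42 to 8.76) at day 5 (log2 change -1.82 ± 0.30, adjusted p = 3.05e-05), and Ftl1, the ferritin light chain, had a median of 651 CPM (464 to 1339) in contralateral libraries and of 180.1 CPM (154 to 372) at day 5 (log2 change -1.70 ± 0.31, adjusted p = 0.000109). Each of these iron genes was separated between the states.

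**Figure D3:**
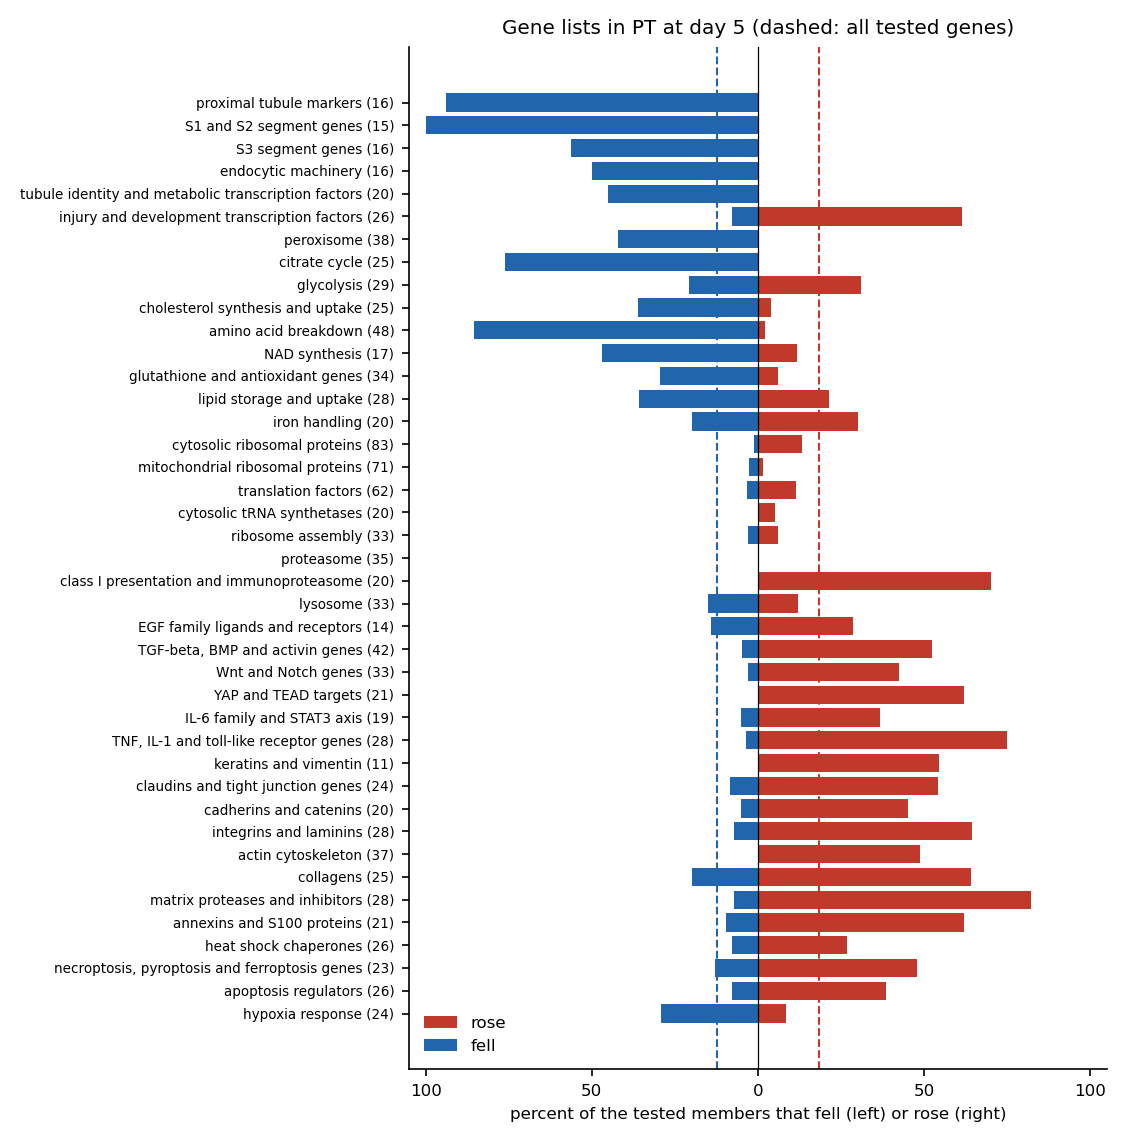
Share of the tested members of each gene list that rose (red, to the right) or fell (blue, to the left) in PT at day 5, with the number tested in brackets. Dashed lines mark 18.2% and 12.4%, the shares of all tested genes that rose and fell, and the lists of tubule identity and metabolism stand mostly to the left while those of signalling and structure stand mostly to the right.

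Few genes of the translation machinery passed the test on the TMM scale. Of 83 tested genes for cytosolic ribosomal proteins 11 rose and 1 fell, with a median of 0.57; without the scaling 44 rose, with a median of 1.03. Rpl22l1, a paralog of Rpl22, moved from 22.6 CPM (17.8 to 38.7) to 65.3 CPM (52 to 92.5) (log2 change 1.51 ± 0.19, adjusted p = 8.58e-07), without overlap. The many pseudogenes of this family leave single counts uncertain. Of 71 mitochondrial ribosomal proteins 1 rose and 2 fell, with a median of -0.40, which turned to 0.07 without the scaling. Of 62 translation factors 7 rose and 2 fell. Eif4e3, a cap-binding protein, moved from 3.03 CPM (2.28 to 4.2) to 39.2 CPM (27 to 42.4) (log2 change 3.56 ± 0.16, adjusted p = 4.87e-13), and Eif4ebp1, a repressor of cap-dependent translation, moved from 20.7 CPM (10.1 to 27.9) to 115 CPM (88.1 to 162) (log2 change 2.67 ± 0.28, adjusted p = 1.12e-07). Both were free of overlap. Among 33 genes of ribosome assembly 2 rose, Gar1 (1.65 ± 0.23) and Npm1, nucleophosmin (1.19 ± 0.12), and Utp20 fell (-1.16 ± 0.23, -0.71 and not called without the scaling). Among 20 cytosolic tRNA synthetases Vars rose (1.12 ± 0.29), and the more abundant Sars (0.43 ± 0.14) and Nars (0.09 ± 0.15) did not pass. None of 35 proteasome genes passed both thresholds, while 4 rose without the scaling, and Psma7, a core subunit, stood at 552 to 509.6 CPM (0.17 ± 0.16).

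Of 20 genes of class I antigen presentation and the immunoproteasome, 14 rose and none fell, with a median of 1.64. Psmb8, an inducible protease subunit, had a median of 2.14 CPM (0.604 to 7.06) in contralateral libraries and of 59.3 CPM (41.1 to 134) at day 5 (log2 change 4.59 ± 0.52, adjusted p = 6.62e-07). Psmb10, another inducible subunit, had a median of 13.9 CPM (8.18 to 20.4) in contralateral libraries and of 145 CPM (122 to 247) at day 5 (log2 change 3.43 ± 0.25, adjusted p = 4.2e-10). B2m, the light chain of class I molecules, had a median of 478 CPM (335 to 744) in contralateral libraries and of 1217 CPM (1002 to 1823) at day 5 (log2 change 1.42 ± 0.15, adjusted p = 1.17e-07). All day 5 libraries lay above all contralateral ones for each gene. Psmb9 rose too (3.06 ± 0.36), but its exons overlap those of Tap1 on the other strand. Macrophage markers, which express these genes too, moved with them and summed to 38.4 to 69.6 CPM at day 5, and their part was not tested. Lysosomal genes gave 4 rises (12.1%) and 5 falls (15.2%) among 33, near the shares of all tested genes, and 9 rises and no falls without the scaling. Ctss, cathepsin S, which trims the invariant chain, moved from 0.967 CPM (0.241 to 2.52) to 6.86 CPM (5.57 to 10.3) (log2 change 2.84 ± 0.32, adjusted p = 2.96e-07), without overlap.

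Signalling genes gave 81 rises and 7 falls among 157 tested. Among ligands, Egf, the kidney's own epidermal growth factor, had a median of 15.7 CPM (4.37 to 22.7) in contralateral libraries and of 0.991 CPM (0.628 to 2.07) at day 5 (log2 change -3.66 ± 0.39, adjusted p = 1.14e-07). Bmp7, a growth factor that maintains the nephron, had a median of 51.3 CPM (39.6 to 67.1) in contralateral libraries and of 16.2 CPM (8.92 to 18.8) at day 5 (log2 change -1.95 ± 0.15, adjusted p = 7.35e-10). Tgfb2, a TGF-beta isoform, had a median of 0.36 CPM (0.186 to 0.763) in contralateral libraries and of 6.89 CPM (6.2 to 12.3) at day 5 (log2 change 4.24 ± 0.27, adjusted p = 6.61e-11). Each of the 3 separated the states. Nrg1, neuregulin, moved from 4.67 CPM (3.86 to 5.49) to 14.1 CPM (12.1 to 16.4) (log2 change 1.61 ± 0.19, adjusted p = 3.61e-07), and Wnt5a, a noncanonical Wnt, moved from 2.14 CPM (1.49 to 4.04) to 8.45 CPM (6.98 to 12) (log2 change 1.95 ± 0.20, adjusted p = 6.64e-08). These ligands too did not overlap. Among receptors, Osmr, the oncostatin M receptor, had a median of 0.171 CPM (0.0514 to 0.61) in contralateral libraries and of 18.6 CPM (8.52 to 28.3) at day 5 (log2 change 6.26 ± 0.42, adjusted p = 1.8e-10). Tlr2, a toll-like receptor of bacterial lipoproteins and damage signals, had a median of 0.232 CPM (0.103 to 0.569) in contralateral libraries and of 13.4 CPM (11.1 to 22.6) at day 5 (log2 change 5.70 ± 0.30, adjusted p = 3.6e-12). Axl, a receptor tyrosine kinase for Gas6, had a median of 0.739 CPM (0.241 to 1.54) in contralateral libraries and of 10.5 CPM (5.01 to 19.6) at day 5 (log2 change 4.02 ± 0.27, adjusted p = 1.27e-10). For all of these the lowest day 5 library exceeded the highest contralateral one. Il11ra1, the interleukin 11 receptor, went the other way, from 49.1 CPM (44.8 to 62.1) to 17 CPM (12.5 to 17.2) (log2 change -1.66 ± 0.19, adjusted p = 3.89e-07).

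Inhibitors and targets of the same pathways rose as well. Socs3, the feedback inhibitor of STAT3, moved from 0.341 CPM (0.0497 to 0.723) to 11.6 CPM (5.34 to 33.4) (log2 change 5.21 ± 0.34, adjusted p = 1.21e-10). Bcl3, an atypical IkB protein, moved from 2.98 CPM (0.739 to 5.2) to 21.8 CPM (17.1 to 29.3) (log2 change 3.06 ± 0.29, adjusted p = 2.04e-08). Ankrd1, a target of YAP and TEAD, moved from 0.511 CPM (0.257 to 1.45) to 16.6 CPM (13.6 to 27.7) (log2 change 4.97 ± 0.34, adjusted p = 2.09e-10). Heyl, a target of Notch, moved from 0.229 CPM (0.181 to 0.558) to 8.16 CPM (6.17 to 12.4) (log2 change 4.75 ± 0.34, adjusted p = 3.32e-10). None of the 4 overlapped between the states. Errfi1, a feedback inhibitor of the EGF receptor, went from 541 CPM (349 to 773) to 196 CPM (140.0 to 254) (log2 change -1.50 ± 0.16, adjusted p = 8.04e-08), also without overlap. By list, 21 of 28 TNF, interleukin 1 and toll-like receptor genes rose and 1 fell (median 1.87). Of 21 YAP and TEAD targets 13 rose and none fell (median 1.4). Of 42 TGF-beta, BMP and activin genes 22 rose and 2 fell (median 1.15). Of 33 Wnt and Notch genes 14 rose and 1 fell (median 1.10), and of 19 genes of the interleukin 6 family and STAT3 axis 7 rose and 1 fell (median 0.56). The 14 EGF family genes were split, with 4 rises and 2 falls.

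Genes of the cytoskeleton, of junctions and of the matrix gave 116 rises and 14 falls among 194 tested. Of 28 matrix proteases and inhibitors 23 rose and 2 fell, with a median of 3.09. Plaur, the urokinase receptor, moved from 0.668 CPM (0.103 to 1.3) to 28.5 CPM (19.6 to 39) (log2 change 5.39 ± 0.30, adjusted p = 9.96e-12), and Adamts5, a protease of aggrecan and versican, moved from 0.739 CPM (0.279 to 0.995) to 19.7 CPM (14.5 to 31.6) (log2 change 5.02 ± 0.26, adjusted p = 2.3e-12). Timp3, the matrix-bound inhibitor, ran opposite to Timp1, from 1449 CPM (682 to 2060) to 465 CPM (304 to 542) (log2 change -1.65 ± 0.24, adjusted p = 7.96e-06), and its exons overlap those of Syn3 on the other strand. All 3 separated the states. Of 11 keratins and intermediate filament genes 6 rose, among them Vim, vimentin, from 6.34 CPM (4.48 to 10.9) to 174 CPM (87.3 to 227) (log2 change 4.47 ± 0.29, adjusted p = 9.15e-11), and Krt20, a keratin of surface epithelia, from 1.53 CPM (1.13 to 3.6) to 246 CPM (80.9 to 323) (log2 change 6.72 ± 0.55, adjusted p = 1.09e-08). Of 37 actin cytoskeleton genes 18 rose and none fell. Tmsb10, a thymosin that binds actin monomers, moved from 1.76 CPM (1.16 to 2.54) to 130.2 CPM (80.1 to 189) (log2 change 6.05 ± 0.29, adjusted p = 9.58e-13), and Flna, filamin A, moved from 1.07 CPM (0.646 to 1.67) to 21.4 CPM (17.9 to 39.9) (log2 change 4.51 ± 0.30, adjusted p = 1.21e-10). The states of these genes did not overlap.

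At the junctions, 13 of 24 claudin and tight junction genes rose and 2 fell. Cldn1, a sealing claudin, moved from 10.1 CPM (5.57 to 18.3) to 174 CPM (80 to 249.5) (log2 change 3.79 ± 0.43, adjusted p = 5.27e-07), and Cldn4 moved from 0.566 CPM (0.0497 to 2.06) to 15.1 CPM (7.96 to 29.4) (log2 change 4.51 ± 0.38, adjusted p = 5.18e-09). Cldn10, a pore-forming claudin, went from 341 CPM (254 to 585) to 139.8 CPM (113 to 162) (log2 change -1.47 ± 0.17, adjusted p = 3.17e-07). No overlap was seen in these claudins. Among cadherins 9 of 20 rose, and the giant cadherins of the Fat family parted: Fat1 rose (2.28 ± 0.38) while Fat2 went from 10.1 CPM (3.13 to 21) to 0.275 CPM (0.137 to 0.848) (log2 change -5.15 ± 0.49, adjusted p = 2.93e-08). Among integrins and laminins 18 of 28 rose and 2 fell, and Lama3, a laminin chain of the basement membrane, went from 21.3 CPM (2.47 to 34.6) to 4.84 CPM (1.68 to 5.97) (log2 change -1.71 ± 0.26, adjusted p = 1.35e-05) with overlapping states. Collagens gave 16 rises and 5 falls among 25. Col4a4, a chain of mature basement membrane, went from 131 CPM (94.6 to 225) to 26.1 CPM (17.4 to 51.1) (log2 change -2.30 ± 0.33, adjusted p = 9.4e-06). The fibrillar Col1a1 stood at 0.926 to 7.49 CPM in the medians (3.19 ± 0.26). It is itself a fibroblast marker, and that list without Dpep1 summed to 27.7 to 49.8 CPM at day 5; the part of fibroblasts was not tested. Of 21 annexins and S100 proteins 13 rose and 2 fell: S100a6 moved from 2.37 CPM (1.54 to 8.62) to 136 CPM (87.1 to 239) (log2 change 5.11 ± 0.43, adjusted p = 1e-08), and Anxa13, an annexin of absorptive epithelia, went from 13.7 CPM (9.44 to 24.3) to 1.84 CPM (1.03 to 2.78) (log2 change -3.19 ± 0.27, adjusted p = 5.66e-09).

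Stress and cell death genes moved both ways. Of 23 genes of necroptosis, pyroptosis and ferroptosis 11 rose and 3 fell, with a median of 1.02. Gsdmd, the pore-forming gasdermin D, had a median of 0.381 CPM (0.228 to 0.514) in contralateral libraries and of 14.1 CPM (12.2 to 18.8) at day 5 (log2 change 5.29 ± 0.19, adjusted p = 1.99e-14). Mlkl, the effector of necroptosis, had a median of 0.696 CPM (0.325 to 1.6) in contralateral libraries and of 13.9 CPM (11.7 to 17.8) at day 5 (log2 change 4.25 ± 0.22, adjusted p = 3.9e-12). Casp4, the inflammatory caspase that cleaves gasdermin D, had a median of 0.14 CPM (0.0497 to 0.763) in contralateral libraries and of 7.42 CPM (4.08 to 13.7) at day 5 (log2 change 5.05 ± 0.55, adjusted p = 2.23e-07). All 3 were free of overlap. Of 26 apoptosis regulators 10 rose and 2 fell. Birc3, a ubiquitin ligase that restrains cell death in TNF signalling, moved from 2.89 CPM (2.54 to 4.44) to 72.7 CPM (43.2 to 104) (log2 change 4.49 ± 0.30, adjusted p = 1.73e-10), while Bid, a BH3 protein, fell by 1.07 and was not called without the scaling (-0.59). Of 26 heat shock genes 7 rose and 2 fell. The small heat shock protein Hspb1 moved from 0.422 CPM (0.279 to 0.992) to 52.7 CPM (28.5 to 93.4) (log2 change 6.58 ± 0.43, adjusted p = 1.94e-10), and Cryab moved from 45.4 CPM (29.7 to 86.8) to 238 CPM (137 to 348) (log2 change 2.16 ± 0.27, adjusted p = 1.31e-06). The mitochondrial chaperone Hspd1 fell by 1.34 (-0.87 and not called without the scaling). The cytosolic chaperone Hsp90ab1 stood at 1527 to 1762 CPM (0.08 ± 0.18). Of 24 hypoxia response genes 7 fell and 2 rose, an order that turned to 1 and 5 without the scaling. Car12, a carbonic anhydrase, went from 88.3 CPM (79.3 to 171) to 24.3 CPM (17.7 to 48.5) (log2 change -1.97 ± 0.26, adjusted p = 1.92e-06), without overlap.

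Among abundant genes, some stayed close to their contralateral level on the TMM scale. Of 574 genes with at least 200 CPM in both states 170 changed, and for 86 the 95% interval of the change lay within 0.5 log2 units either way. Of these, Eef2, the elongation factor that moves the ribosome, stood at 991 to 1066 CPM (0.07 ± 0.19). Aldoa, the glycolytic aldolase, stood at 1612 to 1470 CPM (-0.13 ± 0.16), and Hnrnpa2b1, an RNA-binding protein, at 851 to 806 CPM (-0.02 ± 0.16). Without the scaling their changes were 0.53, 0.35 and 0.46.

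Markers of other cells moved with the state, from low levels. Of 14 tested macrophage markers 13 rose, and the whole list summed to between 6.69 and 14.4 CPM in contralateral and between 38.4 and 69.6 CPM in day 5 PT, against a median of 1000 CPM in Total at day 5. C1qa, a complement chain of macrophages, stood at 0.646 to 4.75 CPM, and Csf1r, their growth factor receptor, did not rise (-0.17 ± 0.21). Exons of Csf1r overlap those of Hmgxb3 on the other strand, whose mean went from 8.49 to 4.42 CPM. Of 12 tested fibroblast markers 10 rose and 1 fell. The one that fell was Dpep1, a tubule gene misplaced on that list. Without it the list summed to between 3.81 and 8.85 CPM in contralateral and between 27.7 and 49.8 CPM in day 5 PT, against a median of 917 CPM in Total at day 5. Of the neutrophil markers none passed the filter, and Retnlg, Mpo, Elane and Ly6g were at 0 in all contralateral libraries. The lymphocyte list stayed between 0.248 and 2.05 CPM in contralateral and between 3.63 and 8.72 CPM at day 5, with Cd79a and Ms4a1 at 0 in all contralateral libraries. Their part in the rises of immune and matrix genes was not tested.

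Markers of other nephron segments moved both ways. The loop and distal tubule list summed to between 163 and 320.0 CPM in contralateral and between 82.5 and 124 CPM in day 5 PT, against a median of 4600 CPM in contralateral Total. Of its 12 tested genes 6 fell and 2 rose. Calb1, a calcium buffer, went from 80.7 CPM (63.2 to 119) to 5.86 CPM (3.85 to 11.5) (log2 change -3.68 ± 0.31, adjusted p = 4.39e-09), whereas Umod, the defining gene of the thick ascending limb, stood at 35.7 to 33.3 CPM (0.07 ± 0.22). The collecting duct list fell from between 76.7 and 115 CPM to between 28.2 and 42.5 CPM, and 4 of its 11 tested genes fell and 1 rose. Aqp3, a water and glycerol channel, held most of it, from 52.7 CPM (32 to 71.5) to 3.49 CPM (0.881 to 9.33) (log2 change -3.82 ± 0.33, adjusted p = 8.34e-09), and Aqp2, the defining channel of principal cells, did not pass the test (-1.49 ± 0.64). The podocyte list stayed between 97.7 and 150 CPM and between 106 and 138 CPM, with rises of Wt1 (2.13 ± 0.30) and Synpo (1.77 ± 0.19) and a fall of 1 other gene among 10. Its shares of rises and falls were near those of all tested genes (18.2% and 12.4%). Endothelial markers gave 6 rises and 1 fall among 12 and summed to between 11.4 and 27.8 CPM and between 23.3 and 29.1 CPM. The urothelium list rose from at most 6.33 CPM to between 117 and 619 CPM, nearly all of it Sprr1a, a cornified envelope protein, from 1.8 CPM (1.12 to 5.49) to 180.2 CPM (116 to 618) (log2 change 6.66 ± 0.41, adjusted p = 7.93e-11). Without Sprr1a and Krt5 it stayed below 1 CPM in every library, and Upk1b, Upk2 and Upk3b were at 0 in all contralateral libraries. The 4 tested erythrocyte genes did not pass the test.

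**Figure D4:**
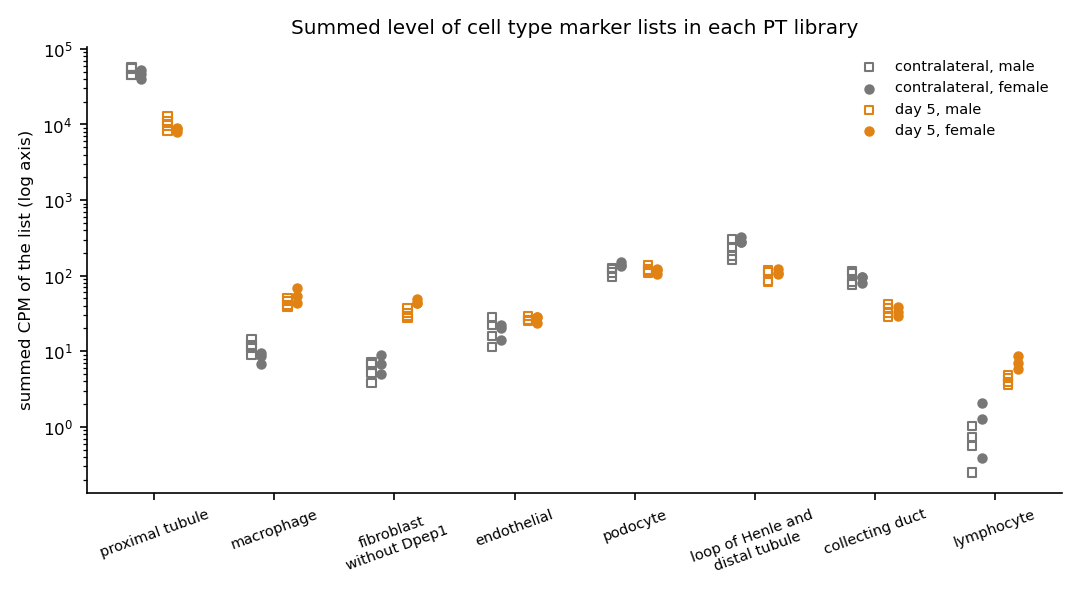
Summed level of 8 cell type marker lists in each PT library, in CPM on a log axis, with open squares for males, filled circles for females, grey for contralateral and orange for day 5. The proximal tubule list falls from at least 39700 CPM to at most 13000 CPM, and the macrophage, fibroblast (without Dpep1) and lymphocyte lists rise but reach at most 69.6 CPM.

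Most genes that changed in both sexes changed in the same direction. In males 4217 genes changed (28.2%) and in females 3972 (26.6%); 2934 were called in both, 2924 of them in the same direction. The difference between the sexes' changes was itself tested, and 75 genes (0.502%) passed, with the female minus the male log2 change above 0 for 44 and below 0 for 31. Of these 75, 67 differed at least 2-fold between the sexes in contralateral kidneys, and for 67 the sexes were closer together at day 5. The contralateral difference between the sexes enters the test itself, so neither count is independent of the choice of the 75. The shares over all tested genes are not given here. Cyp4a12a, an androgen-driven fatty acid hydroxylase with close copies, went from 300.9 to 96.6 CPM in males and from 5.50 to 109 CPM in females (difference of the changes 5.95 ± 0.60, adjusted p = 1.54e-05). Il34, a ligand of the macrophage growth factor receptor, went from 79.9 to 139 CPM in males and from 3.00 to 114 CPM in females (4.44 ± 0.49, adjusted p = 3.5e-05), and its antisense neighbour Gm15895 moved with it. Id1, an inhibitor of bHLH factors and a target of BMP signalling, went from 12.4 to 32.3 CPM in males and from 73.6 to 15.5 CPM in females (-3.63 ± 0.63, adjusted p = 0.00911). For Cyp4a12a and Il34 the sexes stood far apart in contralateral kidneys and near each other at day 5. For Id1 females stood higher in contralateral kidneys and males stood higher at day 5. Kynu, the kynureninase of tryptophan breakdown, went from 4.26 to 8.49 CPM in males and from 89.7 to 18.8 CPM in females (-3.25 ± 0.42, adjusted p = 0.00032). Crispld2, a secreted protein, fell in males and rose in females, from 17.5 to 4.87 and from 0.809 to 7.18 CPM (4.99 ± 0.48, adjusted p = 9.21e-06).

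Npas2 and Ciart, of the circadian clock, were among the 75. Both, and Id1, missed the threshold without day 5 female 1 and without day 5 female 2, and Npas2 also without contralateral female 2. Npas2, a partner of the clock factor Arntl, went from 10.2 to 6.75 CPM in males and from 1.20 to 13.0 CPM in females (4.10 ± 0.77, adjusted p = 0.0168). Ciart, a repressor of the clock, went from 3.94 to 1.99 CPM in males and from 21.9 to 0.322 CPM in females (-5.11 ± 0.92, adjusted p = 0.0127). The labels give no time of day. The number of such differences rested on single libraries: it ran from 22 without day 5 female 1 to 91 without contralateral male 2.

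**Figure D5:**
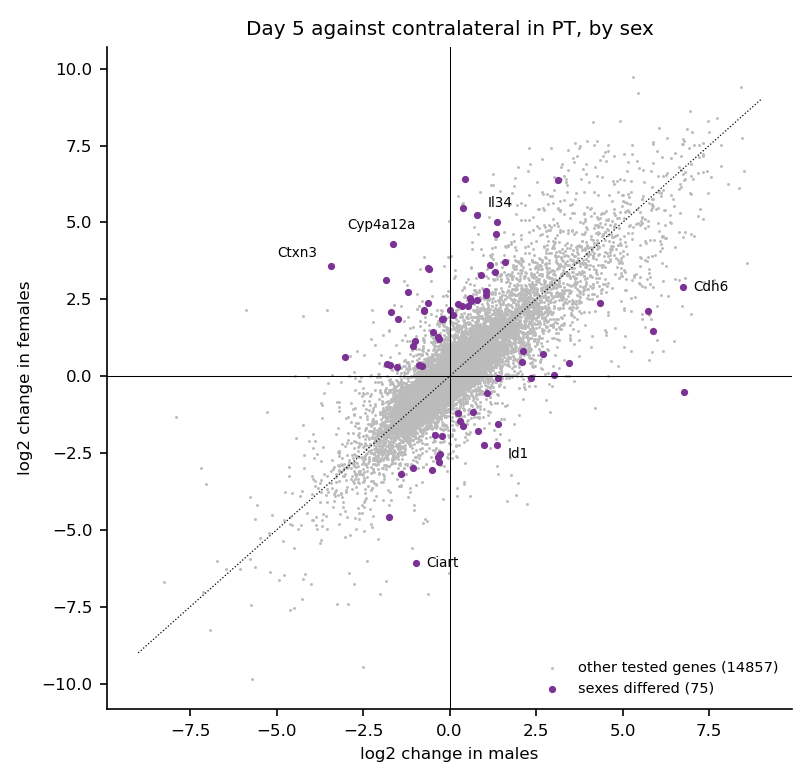
Each point is 1 of 14932 tested genes, with the log2 change at day 5 in males on the x axis and in females on the y axis, and the dotted line marks equal change. Most genes lie along the line, and the 75 whose changes differed between the sexes (purple) include Ctxn3, Cyp4a12a and Il34 above it and Id1, Ciart and Cdh6 below it.

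From day 5 to day 10 few genes changed. In a direct test 66 genes (0.442%) differed between the days, 63 of them higher at day 10 (23 genes without day 10 female 3, 93 without day 10 female 1 and 192 with DESeq2). Of those 63, 42 had risen by day 5 and 4 had fallen, where 18.2% of all tested genes rose and 12.4% fell. None of the 12 largest rises and 12 largest falls was called. The nearest was BC002163, a processed pseudogene whose reads can come from a parent gene, which went from 81.8 CPM (3.35 to 123) to 2.21 CPM (1.79 to 2.94) at day 5 and stood at a mean of 41.7 CPM at day 10 (4.03 ± 0.88 on the log2 scale, adjusted p = 0.0508). Cldn3, a sealing claudin that had risen by day 5, went from a mean of 25.4 to 57.5 CPM (1.45 ± 0.32, adjusted p = 0.0455). Lyz2, the lysozyme of macrophages, went from 14.1 to 29.3 CPM (1.06 ± 0.21, adjusted p = 0.0212). Sprr1a was among the 3 lower at day 10, with means of 249 and 72.1 CPM (-1.76 ± 0.31, adjusted p = 0.0109).

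Set against the same days in Total, 730 of 17110 genes (4.27%) changed by a different amount in PT (878 with sex, state and replicate number as a block). Traf1 rose by 3.94 ± 0.34 more on the log2 scale in PT than in Total, where its mean went from 2.98 to 27.9 CPM. Sox9 rose by 3.34 ± 0.63 more and Runx1 by 3.32 ± 0.37 more. Klf4, a zinc finger factor of epithelia, rose by 3.28 ± 0.43 more, and Rhou, an atypical small GTPase, by 3.80 ± 0.34 more. On these separately scaled levels, the contralateral level of these genes was lower in PT than in Total. Their day 5 level was close to or above that of Total. Day 5 medians in PT were 45.4 CPM for Traf1 and 28.5 CPM for Rhou. In the other direction, Dpep1 changed by -1.84 ± 0.48 and Nav2, a neuronal navigator protein, by -1.72 ± 0.25 in PT relative to Total, both falling further in PT. The call of Dpep1 was lost without day 5 female 1 of PT and without day 5 female 2 of Total. Fcgr2b, an inhibitory Fc receptor, went from a mean of 37.9 to 17.5 CPM in PT and from 25.6 to 36.6 CPM in Total (difference of the changes -1.65 ± 0.25). Without the scaling of library sizes its fall in PT was below 2-fold. Il1rn and Cxcl1 did not pass the test of PT against Total (0.44 ± 0.61 and 0.95 ± 0.59).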

How the data were processed

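The series holds 21 PT and 21 Total libraries. Per the submitters' processing notes, STAR 2.0.4b, Subread and featureCounts 1.4.5 were used; the genome build, annotation and strand setting are not given in the sources used here. Both a raw count table and an RPKM table were deposited by the authors, each with 40701 gene symbols, of which 12632 had no count in any library. The ratio of CPM to RPKM was the same in every library for each gene, within 0.000497 (relative).

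The raw counts entered edgeR 4.0.16 (R 4.3.3) with filterByExpr, TMM factors and a robust quasi-likelihood fit with 1 mean per group to all PT libraries (all 42 for the comparison with Total), Benjamini-Hochberg adjusted, with printed CPM on TMM-scaled library sizes. Standard errors were derived from the test. Scripts were tested on simulated data. The 51 gene lists, the members and the tests were chosen with earlier results of these data known. Genes were named by rule: markers; the 10 largest CPM changes and 12 largest log2 changes each way (the latter at 20 CPM or more, without overlap within a sex); up to 3 called members per list each way at 5 CPM or more; 6 sex and 6 fraction differences each way; and abundant genes with small intervals. Genes of the day 10 comparison were picked from their values. The alternatives tried included other scalings, filters, thresholds, DESeq2 1.42.0, limma-voom and limma 3.58.1 on log2(RPKM + 1) or log2(RPKM + 0.1), only the compared groups, a replicate block, a term for a split by Lars2 level and each library left out. The lowest chi-square per degree of freedom between replicates was 19.1, so no library was counted as a duplicate. GENCODE gene models matched by symbol gave gene types and exon overlaps. Some named genes are not reported here.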

Additional observations from a re-analysis of the deposited data

Results flagged for a closer look

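In 141 genes and 2 shares, looked at in both states (286 groups of 7 libraries), 22 values stood apart from the rest of their group by Dixon's test, which chance gives in about 1 in 20 groups. Of these, 7 belonged to contralateral female 1. They were its share of mitochondrially encoded counts (0.0426%) and its levels of Casp4 (0.763 CPM), Cldn4 (2.06 CPM), Cp (9.84 CPM), Ctss (2.52 CPM), Il1rn (1.98 CPM) and Wnt5a (4.04 CPM). Each was the highest of the 7 contralateral values, and the 6 gene levels lay below those of every day 5 library.

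Other contralateral values that stood apart, each as the highest, were Cd74 in male 4 (188 CPM), Fat1 in male 2 (13.4 CPM), Traf1 in male 3 (0.823 CPM), Hk2 in female 3 (0.228 CPM) and Synpo in female 2 (5.48 CPM). At day 5, female 3 stood apart for C1qa (8.79 CPM), Sprr1a (618 CPM), Tgfb2 (12.3 CPM) and Sqle (45.1 CPM, the lowest). Female 1 did so for Dpep1 (4.57 CPM, the lowest), Hk2 (11.8 CPM) and Runx1 (62.8 CPM). Males 1, 3 and 4 did so for Pck1 (734 CPM), Flna (39.9 CPM) and Psmb9 (30.9 CPM).

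The change at day 5 differed between the sexes for 12 named genes, given as the female minus the male log2 change in edgeR's test of that difference. It was above 0 for Ctxn3 (7.01), Cyp4a12a (5.95), Gm15895 (5.08), Crispld2 (4.99), Il34 (4.44) and Npas2 (4.10). It was below 0 for Ciart (-5.11), Aldh1l2 (-4.40), Cdh6 (-3.83), Id1 (-3.63), Xirp2 (-3.63) and Kynu (-3.25). With each of the 14 libraries left out in turn, the call was lost in 13 fits for Xirp2 and in 11 each for Aldh1l2 and Cdh6, and all 3 were lost with the replicate block. It was lost in 3 fits each for Ctxn3 and Npas2 and in 2 each for Ciart and Id1. Exons of Il34 and Gm15895 overlap on opposite strands, as do those of Aldh1l2 and D10Wsu102e.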

How the results depend on the processing

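The count of 4572 changed genes stayed within 1.5 times under every scaling, DESeq2 (4643), limma-voom (4557), an adjusted p under 0.01 (4140) and each library left out (4411 to 4732). It was 2722 with a filter of 5 CPM in 3 libraries, 2113 with limma on log2(RPKM + 1) and 7992 without the fold minimum. In males (4217) these 3 gave 2635, 2112 and 6385, and in females (3972) log2(RPKM + 1) gave 2262. Leaving out each library gave 3819 to 4315 in males and 3482 to 3912 in females. The 75 differences between the sexes became 40 without the scaling, 191 with DESeq2, 20 at an adjusted p under 0.01 and 22 (without day 5 female 1) to 91 (without contralateral male 2) with each library left out, where 11 of 14 fits moved by over 1.5 times. The 66 between day 10 and day 5 became 192 with DESeq2 and 23 (without day 10 female 3) to 93 with each library left out. The 730 against Total stayed within 1.5 times (667 to 781 with each library left out). The mitochondrial share differed by -0.0133 to -0.00733 percentage points with each library left out. The 20 most abundant genes held 27.2% and 23.6% of counts, a difference of -3.51 points (exact permutation p = 0.114), which ran from -5.4 (without day 5 female 3, exact permutation p = 0.00429) to -2.21 with each library left out and was -6.24 for the 100 most abundant (exact permutation p = 0.0129).

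Replicate numbers did not pair contralateral with day 5 libraries (3 of 7 numbers correlated above 0.1, from -0.404 to 0.357, and 2 matched best with their own). Those of PT and Total deviated together in contralateral kidneys (7 of 7, from 0.288 to 0.439) but for 5 of 7 at day 5 (from -0.086 to 0.456), so pairing was not taken as shown. With the replicate block the counts were 4583, 4187, 3950, 63 and 70, and 878 against Total. A split of the PT libraries by Lars2 level, chosen after seeing the data, gave 153 differences between the sexes as a term, and 1 and 40 within its high and low side. In females 2102 genes changed within the high side, which holds 1 female library of each state, assumed to vary like the others. The planned split left 1 library on its high side, where no fit was run. Of 238 named changed genes 155 passed in every fit that gave a value, and 16 were lost in at least 1 fit that left out a library. Col6a6 turned to 0.09 within the high side, and Cdh6 to 0.24 for the sexes on log2(RPKM + 1); the cause was not tested. The fibroblast sum moved by -2.64 with Dpep1 and by 2.49 without it, since Dpep1 made up most of it. Of 51 lists 8 medians changed sign under another scaling. Genes of a few counts are limited by depth.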
